A study of Mus musculus with 12 samples.

Results

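The solute carriers are membrane proteins that move ions, metals, sugars, amino acids, vitamins and metabolites across the plasma membrane and the membranes of organelles. The genes described here are those whose symbol has the form Slc, a family number, the letter a and a member number, and whose level averaged 5 or more CPM (counts scaled to a common library total) over all 12 libraries, apart from 10 genes of glucose, fatty-acid, carnitine and iron transport (Slc2a1, Slc2a3, Slc2a4, Slc2a8, Slc25a20, Slc22a5, Slc27a1, Slc27a4, Slc40a1 and Slc11a2). Of the 24062 genes counted, 331 had such a symbol, and 90 met the rule, after the 10 exceptions and 231 genes under the limit were set aside. The rule used the measured level, so being expressed is no finding, and it did not use the diet. A gene that is high in 1 diet can reach the limit through that diet alone: 2 of the 90 did so through HFD, 9 through CD, and 79 averaged 5 CPM or more in both. For those 11 genes the rule itself favours the direction seen; the 2 are Slc23a3 and Slc25a35, and Slc12a5, Slc12a7, Slc15a2, Slc16a12, Slc25a22, Slc26a2 and Slc2a12 are among the 9.

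The oocytes came from female mice kept for 9 weeks on high-fat feed (HFD) or on control feed (CD), with 6 libraries per diet, each from 4 pooled oocytes. Both diets carry 1 product code in the labels, with the HFD called a modification of it, which leaves the make-up of the control feed unclear, and all animals ate the CD while they were mated. The matings were with vasectomized males, and the oocytes were taken at day 0.5 p.c., so they were not fertilised. There were 6 females per diet, but no label ties a pool to a female, so p-values measure the spread between pools, which may in part be technical. Strain, age and the number of females behind a pool are not given in the labels.

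An ovulated oocyte makes almost no new RNA, so its transcripts are a store laid down during growth. It takes up amino acids, zinc, nucleosides and pyruvate, in part through the surrounding cumulus cells by way of gap junctions and in part through carriers of its own. Glycine taken up by Slc6a9 sets the cell volume of the fertilised egg, the exchangers of the Slc4 family help set its pH, and the zinc importers Slc39a6 and Slc39a10 supply the zinc that holds the egg in meiotic arrest and is released at fertilisation. Inside the cell, the Slc25 family carries ATP, phosphate, amino acids and cofactors across the inner mitochondrial membrane, and Slc35 members carry nucleotide sugars into the Golgi and endoplasmic reticulum, where proteins such as those of the zona pellucida are glycosylated.

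Gene counts summed to 8409491 to 13793598 in HFD libraries and 8556396 to 10477316 in CD libraries. Every count was even in 4 of the 6 HFD libraries (replicates 1, 2, 4 and 6) and in no CD library. Of 12 oocyte markers all were detected, with summed levels of 12651 to 29384 CPM in HFD pools and 10238 to 21315 CPM in CD pools. The 22 cumulus and granulosa markers summed to 29.03 to 60.9 CPM in HFD pools and 43.5 to 113 CPM in CD pools, with Amh, Ptx3 and Areg at 0 in all libraries. Cyp19a1 held 13.3 to 54.8 CPM of it, and Cyp11a1 59.4 CPM in CD replicate 1 and 5.65 CPM or less elsewhere. The 8 oviduct markers summed to 7.40 to 110 CPM in HFD pools and 13.2 to 218 CPM in CD pools, of which Cdh1 held 2.22 to 213 CPM, with Sprr2f at 0, and the 7 blood and immune markers to 2.42 to 9.43 CPM in HFD pools and 2.25 to 8.15 CPM in CD pools, with the haemoglobin genes at 0. The biological coefficient of variation between pools, which edgeR estimates over all genes, was 64.0%.

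Together the 90 solute carriers took 0.259% to 0.566% of the gene counts in HFD libraries and 0.307% to 1.203% in CD libraries. Their summed level was 2591, 3123, 4651, 4761, 5662 and 4434 CPM in HFD replicates 1 to 6, against 7529, 3706, 12034, 3068, 6205 and 6439 CPM in CD replicates 1 to 6. The diets overlapped: CD replicates 2 and 4 lay within the HFD range, and CD replicate 3 lay far above every other library. Slc45a3 alone gave 6.85% to 17.5% of this sum in HFD libraries and 4.88% to 30.9% in CD libraries. In RNA of pooled cells, fewer cells of a type and less RNA per cell cannot be told apart, and a share of counts also depends on all other transcripts. Without Slc45a3 the sum was 2414 to 4672 CPM in HFD pools and 2918 to 8312 CPM in CD pools.

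All 90 solute carriers passed edgeR's filter on low counts. More of them were lower than higher in HFD, but none passed the test. With edgeR's quasi-likelihood test, 0 of the 90 had an adjusted p under 0.05, as for all genes tested (0 of 9935, 0%), and the smallest adjusted p was 0.0968, for Slc25a40. DESeq2 called 1 of them, again Slc25a40, where it called 7.42% of all genes with an adjusted p. At an unadjusted edgeR p under 0.05, 17 of the 90 were lower in HFD (18.9%, against 8.89% of all genes tested) and 4 were higher (4.44%, against 13.4%). Among the 7428 tested genes at the same limit of 5 CPM, those shares were 11% lower and 15.3% higher. The log2 fold change, HFD minus CD, was below 0 for 68 of the 90 (75.6%, against 48.2% of all genes and 50.5% of those at the limit), and its median was −0.46, against 0.04 for all genes tested and −0.01 for those at the limit. For the 79 that reached the limit in both diets the median was −0.38, with 15 lower and 3 higher at that unadjusted p.

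The size of this shift rested in part on single pools, and the share of all genes tested past the same p is given in brackets. Without CD replicate 3 the median over the 90 was −0.26, with 5 lower at an unadjusted p under 0.05 (4.81%) and 3 higher (9.82%). Without HFD replicate 3 it was −0.50, with 15 lower (7.94%) and 1 higher (9.26%), and without both it was −0.27, with 5 lower (4.67%) and 0 higher (7.26%). The count lower at that p was 6 without HFD replicate 1 (6.44%), 9 without HFD replicate 2 (8.32%), 11 without HFD replicate 4 (7.35%) and 11 without CD replicate 6 (8.6%), and 2 were higher without CD replicate 2 (12.7%). It was 22 without CD replicate 4 (9.7%), and 5 were higher without CD replicate 6 (11.2%). Scaling by total counts in place of TMM moved the median of all genes tested to −0.06, and that of the solute carriers to −0.60, with 23 lower (12.7%) and 2 higher (10.9%). Removing from each library its trend of level with transcript length, with limma on log2 CPM in place of edgeR, gave a median of −0.32, with 11 lower (7.31%) and 1 higher (6.49%). A replicate block gave 7 lower (5.29%) and 2 higher (7.34%). Limma-voom gave 15 lower, for which the share of all genes was not taken, and 1 higher (10.5%). The 8 libraries with odd counts, HFD replicates 3 and 5 and all CD libraries, gave 6 lower (4.29%) and 5 higher (12.6%).

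The fit without the length trend also used limma on log2 CPM in place of edgeR. In it the log2 fold change moved by more than 1.5 times, or turned its sign, for 34 of the 55 solute carriers named here. With limma-voom and no length step this held for 26 of the 55, and the part of length alone was not tested. Of the named genes below 0, the fit without the length trend left Slc45a3 at −0.87 and the zinc importers Slc39a10 and Slc39a6 at −0.52 and −0.20. It left the ascorbate transporter Slc23a2 at −0.44, the choline-transporter-like Slc44a2 at −0.90 and the pyruvate carrier Slc16a1 at −0.24. The Slc25 members below 0 went both ways, with Slc25a12 at −0.56 and Slc25a22 at −0.69, and Slc25a38 at −0.83. Of the named genes above 0, the same fit left the ADP/ATP translocases Slc25a5 and Slc25a31 at 0.06 and 0.09, Slc38a9 at 0.68, Slc23a3 at 0.83 and Slc25a35 at 1.55.

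**Figure D1:**
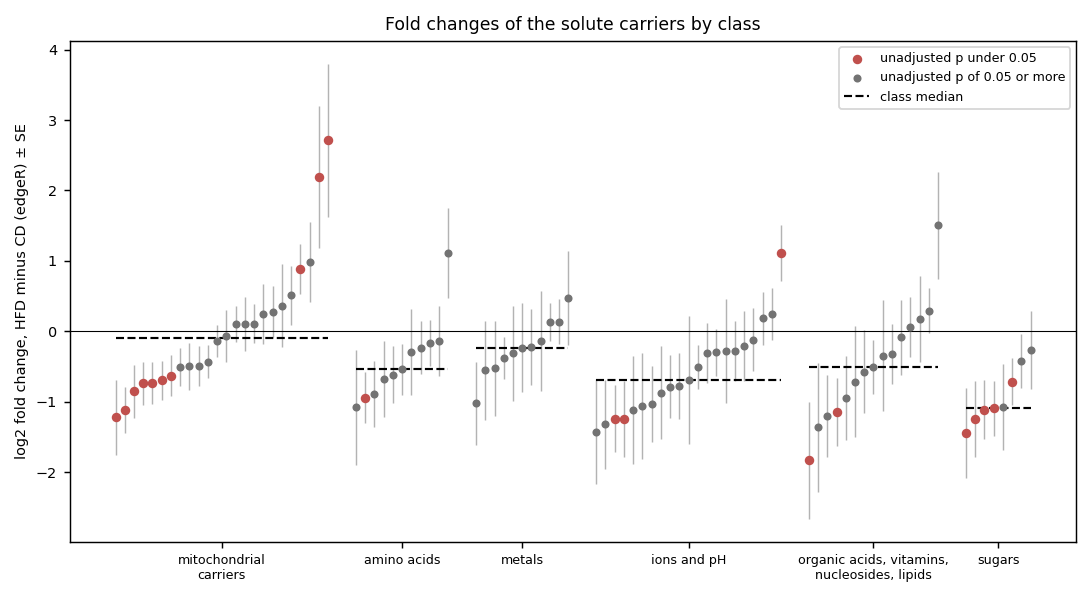
Log2 fold change (HFD minus CD, edgeR, with its SE as bars) of each of the 90 solute carriers, ordered within 6 classes of substrate or site; red points have an unadjusted p under 0.05 and dashed lines are class medians. The 8 sugar carriers all lie below 0 with a median of −1.08, while the 24 carriers of the mitochondrial family lie on both sides with a median of −0.10, and no gene passes an adjusted p of 0.05.

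Grouped by the known substrates of their families, the classes differed in where their members lay. All 8 sugar and nucleotide-sugar carriers had a log2 fold change below 0 (median −1.08), as did 10 of 11 amino acid and peptide carriers (median −0.54), 18 of 21 ion and pH carriers (median −0.69), 11 of 15 carriers of organic acids, vitamins, nucleosides and lipids (median −0.51) and 8 of 11 metal carriers (median −0.23). The 24 members of the mitochondrial Slc25 family were split, with 13 below 0 and 11 above and a median of −0.10. Among the genes that reached the limit in both diets, 13 of 16 ion and pH carriers lay below 0 (median −0.41), 9 of 10 amino acid carriers (−0.42), 10 of 13 organic acid carriers (−0.51), all 7 sugar carriers (−1.10) and 12 of 22 Slc25 members (−0.10), and all 11 metal carriers reached it. Without CD replicate 3 the class medians were −0.71 for sugars, −0.26 for amino acids, −0.30 for ions, −0.30 for organic acids, 0.01 for metals and −0.14 for the Slc25 family. By the form of symbol in the rule, the Slc35 members in the sugar class are only those with the letter a. The 17 other Slc genes at the limit, most of them Slc35 members with another letter, had 9 above 0 and 8 below (median 0.07). No difference between classes was tested.

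**Figure D2:**
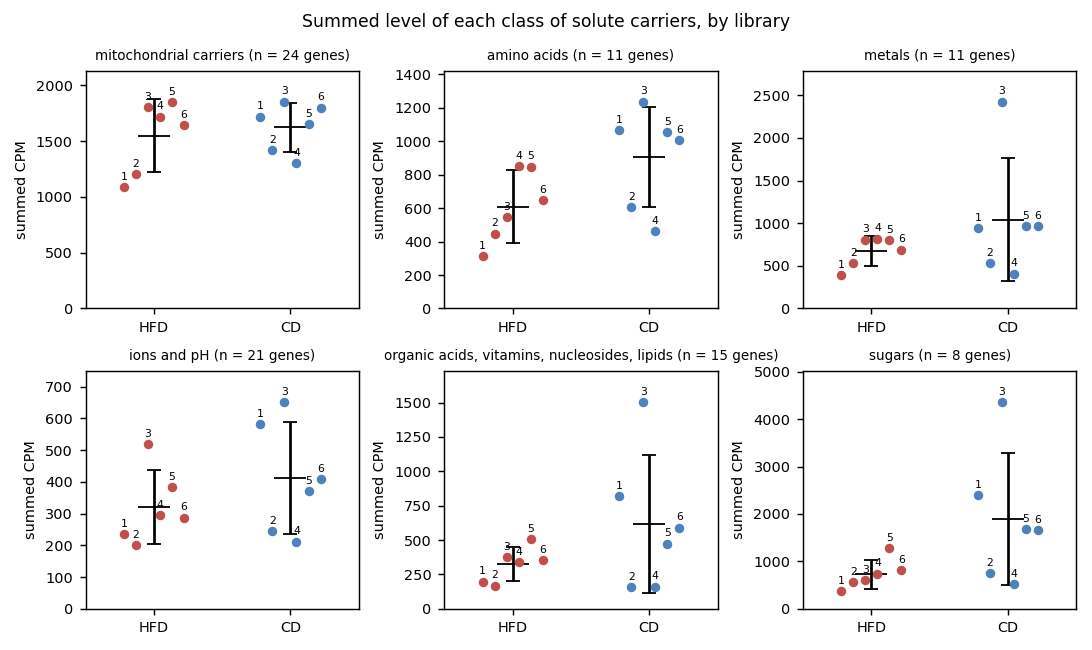
Summed CPM of each class in the 6 HFD and 6 CD libraries (points, numbered by replicate), with the mean and SD of each diet. The diets overlap in every panel, and CD replicate 3 is the highest library in all 6, by little in the Slc25 family (1850 CPM in HFD replicate 5 and 1854 CPM in CD replicate 3).

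By library, the Slc25 family was the steadiest class, with a summed level of 1085 to 1850 CPM in HFD pools and 1306 to 1854 CPM in CD pools. The sugar carriers ranged from 371 to 1276 CPM in HFD pools and from 515 to 4362 CPM in CD pools, and the organic acid and vitamin carriers from 169 to 508 CPM in HFD pools and from 160 to 1504 CPM in CD pools. The coefficient of variation over the 12 libraries had a median of 40.6% for the Slc25 members, 57.9% for amino acid carriers, 65.4% for sugar carriers, 65.8% for ion carriers, 72.6% for metal carriers and 76.4% for the organic acid class, against 53.6% for all tested genes at the limit.

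Slc45a3, a member of a family of proton-coupled sugar transporters (chromosome 1, 131962967 to 131982969, plus strand, mm10), had the highest level per length of the 90, at 285 CPM per kb of its longest transcript over the 12 libraries. Its lowest, median and highest level was 178, 452 and 991 CPM in HFD libraries, against 150, 1230.04 and 3722 CPM in CD libraries. The HFD libraries all lay below the CD mean, yet CD replicates 2 and 4 were among the lowest of all 12. Its log2 fold change was −1.45 ± 0.64 (SE; edgeR, adjusted p = 0.208), and −0.86 without CD replicate 3.

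After Slc45a3, the highest levels per kb were those of Slc25a5 (169 CPM per kb), the ADP/ATP translocase of dividing cells, and Slc3a2 (117 CPM per kb), the heavy chain shared by several amino acid exchangers. Next came Slc25a31 (74.0 CPM per kb), the ADP/ATP translocase of germ cells, the zinc importer Slc39a10 (73.7 CPM per kb), the brain uncoupling-protein relative Slc25a14 (65.5 CPM per kb) and the ornithine carrier Slc25a15 (58.2 CPM per kb). The mitochondrial glycine carrier Slc25a38, the low-affinity copper transporter Slc31a2 and the purine nucleobase transporter Slc43a3 closed the 10 highest, at 53.7, 52.8 and 52.5 CPM per kb.

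The start regions of 2 uneven and 2 steady carriers are shown to set their sequence beside their levels. The window runs from 250 bases before to 50 after the RefSeq start (GRCm38.p6), and capitals mark the CCAAT box (CCAAT) and the GC box (GGGCGG), each on either strand. Slc45a3 (chr1:131970359-131970658, plus strand) had the highest level per kb, and the zinc importer Slc39a10 (chr1:46853569-46853868, minus strand) had, like it, its highest library in CD replicate 3. Slc31a1 (chr4:62360451-62360750, plus strand) and Slc30a9 (chr5:67306705-67307004, plus strand) varied least over the 12 libraries. These 4 were chosen after their levels were seen.
Slc45a3: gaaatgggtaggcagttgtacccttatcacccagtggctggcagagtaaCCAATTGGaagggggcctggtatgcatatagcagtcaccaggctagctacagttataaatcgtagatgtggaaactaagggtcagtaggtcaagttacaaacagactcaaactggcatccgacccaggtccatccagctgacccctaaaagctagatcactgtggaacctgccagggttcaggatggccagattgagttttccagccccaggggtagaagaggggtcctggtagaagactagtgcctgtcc
Slc39a10: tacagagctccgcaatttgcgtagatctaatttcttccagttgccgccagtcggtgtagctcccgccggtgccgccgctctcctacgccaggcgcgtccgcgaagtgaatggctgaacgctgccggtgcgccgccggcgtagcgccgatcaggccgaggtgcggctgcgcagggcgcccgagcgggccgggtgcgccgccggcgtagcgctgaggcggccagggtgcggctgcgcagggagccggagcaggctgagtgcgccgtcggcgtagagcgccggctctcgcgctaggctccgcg
Slc31a1: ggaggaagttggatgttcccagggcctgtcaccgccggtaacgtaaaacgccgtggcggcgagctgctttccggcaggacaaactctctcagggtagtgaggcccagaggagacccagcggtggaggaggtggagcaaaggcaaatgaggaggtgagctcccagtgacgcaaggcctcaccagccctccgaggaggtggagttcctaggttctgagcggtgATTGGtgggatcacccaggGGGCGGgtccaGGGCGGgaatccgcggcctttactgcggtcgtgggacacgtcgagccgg
Slc30a9: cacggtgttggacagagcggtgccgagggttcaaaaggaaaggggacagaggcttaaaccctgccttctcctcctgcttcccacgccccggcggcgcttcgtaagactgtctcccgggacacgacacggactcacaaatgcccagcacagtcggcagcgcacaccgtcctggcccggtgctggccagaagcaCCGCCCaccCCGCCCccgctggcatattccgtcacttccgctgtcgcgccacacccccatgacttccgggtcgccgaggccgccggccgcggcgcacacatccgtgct

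The Slc45a3 window held 2 CCAAT boxes, which overlap each other on opposite strands, a TATAAA and no GC box, with 51.3% G and C. The Slc39a10 window held none of these 3, with 72.3% G and C, the most of the 4, so the 2 uneven genes lie on either side of the 2 steady ones. Its RefSeq start lies 428 bases from that of the GENCODE transcript. For Slc45a3 and Slc39a10 the window lies inside the span of the gene, downstream of the outermost GENCODE start. RefSeq gave 2 windows for each of these genes, of which only 1 was used, and 1 window for each steady gene. The windows of Slc31a1 and Slc30a9 each held 2 GC boxes, with 64% and 67.3% G and C. RefSeq windows were found for 67 of the 90 genes, and 67.2% of these held a GC box, against 36.1% of 27025 mouse promoters of the same length. A CCAAT box stood in 34.3% of them, against 37.8%, a TATAAA in 10.4%, against 14.2%, an E-box (CANNTG) in 82.1%, against 72.2%, and the element TAATTG of the oocyte factor NOBOX in 5.97%, against 8.07%, each searched on both strands. Their median G and C content was 61.7%, against 52.7%. The 67 belong to genes chosen by their level, while the 27025 were not, and promoters of other genes at the limit were not set beside them. A match is a run of letters and not a shown binding site.

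Among the other sugar and nucleotide-sugar carriers, 4 more had an unadjusted p under 0.05, all lower in HFD: Slc35a3, Slc35a4, Slc5a12 and Slc37a3. Slc35a3, the Golgi carrier of UDP-N-acetylglucosamine (chromosome 3, 116669470 to 116712831), had a lowest, median and highest level of 8.44, 11.9 and 26.1 CPM in HFD libraries, against 17.7, 28.8 and 56.1 CPM in CD libraries. Only HFD replicate 2 reached into the CD range. On average, the log2 fold change was −1.10 ± 0.39 (edgeR, adjusted p = 0.134) and lay between −1.34 and −0.88 with each library left out. Slc35a4, of the same nucleotide-sugar family, had 34.9, 69.6 and 177 CPM in HFD libraries, against 68.4, 186 and 348 CPM in CD libraries (log2 fold change −1.11 ± 0.42; edgeR, adjusted p = 0.145). In CD it was highest in replicates 2 and 4, the 2 CD libraries where Slc45a3 was lowest. Its span overlaps that of Apbb3 on the other strand, and reads in any shared exon cannot be told apart. Slc35a1, which carries CMP-sialic acid, averaged 79.3 ± 50.9 CPM in HFD pools and 109 ± 66.1 CPM in CD pools (SD, n = 6 each), a difference within the spread. Slc5a12 belongs to a family of sodium-coupled sugar transporters but is known to carry lactate, and Slc2a12 is a glucose transporter. Slc5a12 averaged 13.7 ± 9.02 CPM in HFD pools and 36.4 ± 27.8 CPM in CD pools (log2 fold change −1.24 ± 0.54; edgeR, adjusted p = 0.198), and the log2 fold change was −0.74 without CD replicate 3.

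**Figure D3:**
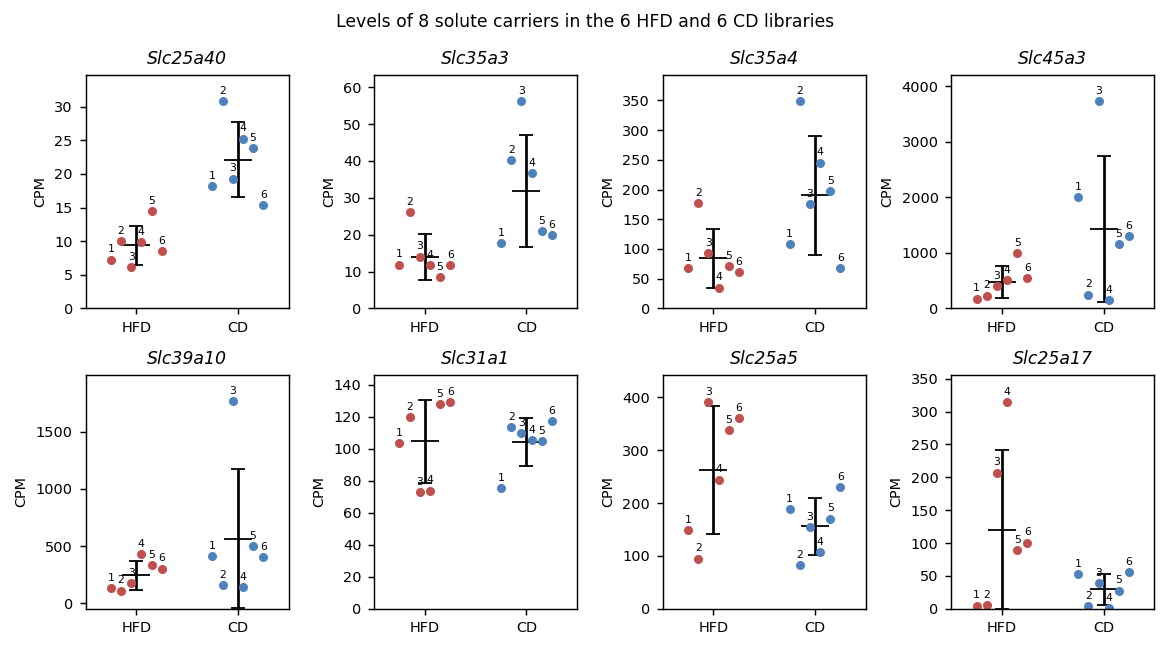
CPM of 8 solute carriers in each HFD and CD library (points, numbered by replicate), with the mean and SD of each diet. For Slc25a40 the HFD libraries, at 6.18 to 14.5 CPM, lie wholly below the CD libraries, at 15.4 to 30.8 CPM; Slc45a3 and Slc39a10 are drawn up by CD replicate 3, at 3722 and 1765 CPM, and Slc31a1 is level across both diets.

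Of the amino acid and peptide carriers, Slc3a2 had the highest level per kb, and it stood at 134 CPM or more in every library. This heavy chain pairs with light chains such as Slc7a5, which stayed under the limit at 4.34 CPM, and the cystine/glutamate exchanger Slc7a11. Slc3a2 had a lowest, median and highest level of 134, 264 and 464 CPM in HFD libraries, against 216, 404 and 506 CPM in CD libraries, and the diets overlapped (log2 fold change −0.23 ± 0.37; edgeR, adjusted p = 0.751). The fold change was −0.07 on the log2 scale without HFD replicate 3 and −0.48 without HFD replicate 4. Slc7a11, which supplies cystine for glutathione, averaged 77.8 ± 31.2 CPM in HFD pools and 124 ± 63.8 CPM in CD pools (log2 fold change −0.54 ± 0.37; edgeR, adjusted p = 0.403), and the log2 fold change was −0.33 without CD replicate 3 and −0.295 with the length trend removed.

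Only the taurine transporter Slc6a6 had an unadjusted p under 0.05 in this class. It had 17.1, 31.8 and 70.8 CPM as its lowest, median and highest level in HFD libraries, against 27.7, 67.4 and 110 CPM in CD libraries, and all 6 HFD libraries lay below the CD mean. The log2 fold change was −0.94 ± 0.36 (edgeR, adjusted p = 0.154), and −1.23 to −0.81 with each library left out. The glycine transporter Slc6a9, which the egg uses to regulate its volume, was low and uneven. It had 2.32, 9.52 and 33.1 CPM in HFD libraries, against 4.44, 10.4 and 46.3 CPM in CD libraries, with the highest value in replicate 3 of each diet, and its log2 fold change of −0.30 ± 0.61 became 0.45 without CD replicate 3. Its span overlaps those of B4galt2 and Ccdc24 on the other strand, and reads in any shared exon cannot be told apart. Slc38a9, the arginine-sensing carrier of the lysosome, was the 1 member of the class above 0, through HFD replicate 3 alone: it had 69.7 CPM there, 4.64 to 9.24 CPM in the other HFD libraries and 4.45 to 11.8 CPM in CD libraries, and its log2 fold change of 1.11 ± 0.64 became −0.13 without that library. Slc43a3 sits in a family of amino acid transporters but is known to carry purine nucleobases. It averaged 102 ± 52.3 CPM in HFD pools and 174 ± 73.2 CPM in CD pools (log2 fold change −0.62 ± 0.41; edgeR, adjusted p = 0.395). The peptide transporter Slc15a2 stood at the edge of the rule, at 3.17 ± 2.27 CPM in HFD pools and 7.65 ± 6.82 CPM in CD pools.

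The metal carriers held 1 of the most uneven and the steadiest of the well-expressed genes, and none had an unadjusted p under 0.05. Slc39a10, a zinc importer (chromosome 1, 46807544 to 46892852, minus strand), had a lowest, median and highest level of 112, 239 and 428 CPM in HFD libraries, against 142, 407 and 1765 CPM in CD libraries. CD replicate 3 alone held the 1765 CPM, while the other 5 CD libraries reached at most 499 CPM. Its log2 fold change was −1.02 ± 0.59 (edgeR, adjusted p = 0.315), and −0.20 without CD replicate 3. Slc39a6, its partner in zinc uptake, averaged 72.5 ± 30.3 CPM in HFD pools and 100.2 ± 38.9 CPM in CD pools (log2 fold change −0.38 ± 0.29; edgeR, adjusted p = 0.471), and shares its locus with Elp2 on the other strand.

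For copper import, no difference beyond the spread was found. Slc31a1, the high-affinity copper importer, was the steadiest of the 90, with a coefficient of variation of 19.3%. It averaged 105 ± 25.9 CPM in HFD pools and 104 ± 14.99 CPM in CD pools, with a range of 73.0 to 129 CPM in HFD pools and 75.5 to 117 CPM in CD pools, though Cdc26 overlaps it on the other strand. Slc31a2, its neighbour on chromosome 4, split the libraries in another way. It stood at 18.8 and 17.4 CPM in HFD replicates 1 and 2 and at 64.7 to 142 CPM in the other 4, against 14.04 and 11.9 CPM in CD replicates 2 and 4 and 119 to 187 CPM in the other 4. The mean difference between diets was small beside this (log2 fold change −0.14 ± 0.71; edgeR, adjusted p = 0.929), and its sign turned when any of 4 single libraries was left out. Slc30a9, of the zinc exporter family, was the other steady member, at 11.4 ± 2.62 CPM in HFD pools and 11.4 ± 1.95 CPM in CD pools. The brain vesicle zinc carrier Slc30a3 ranged from 10.96 to 274 CPM in HFD pools and from 29.2 to 136 CPM in CD pools, with a log2 fold change of 0.47 ± 0.66 that was −0.14 without HFD replicate 3, and lies opposite Dnajc5g.

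Ion and pH carriers were low in level, at 14.5 CPM per kb or less, and 18 of the 21 lay below 0. The gene of the class with the most counts, Slc4a8, a sodium-driven chloride/bicarbonate exchanger (chromosome 15, 100761747 to 100823968, plus strand), was higher in HFD at an unadjusted p under 0.05. It had a lowest, median and highest level of 41.1, 64.0 and 242 CPM in HFD libraries, against 30.3, 38.4 and 74.3 CPM in CD libraries. HFD replicate 3 was the highest, the CD mean was passed by 4 of the 6 HFD libraries, and the diets overlapped. On average, the log2 fold change was 1.11 ± 0.40 (edgeR, adjusted p = 0.135), and 0.72 without HFD replicate 3, where its unadjusted p no longer passed. With the trend of level with transcript length removed it was 1.09.

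The bicarbonate exchanger of the egg, Slc4a2, was under the limit, at 2.56 ± 1.27 CPM in HFD pools and 2.66 ± 1.59 CPM in CD pools. Slc4a7, a sodium bicarbonate cotransporter, averaged 21.4 ± 15.6 CPM in HFD pools and 48.8 ± 33.9 CPM in CD pools (edgeR, adjusted p = 0.268). The sulphate transporter Slc26a2 averaged 4.71 ± 3.23 CPM in HFD pools and 11.2 ± 4.81 CPM in CD pools (log2 fold change −1.24 ± 0.48; edgeR, adjusted p = 0.153) with a fold change between −1.53 and −1.08 on the log2 scale with each library left out; it met the rule only through CD, which favours a lower HFD value. Slc26a5, known as prestin, the motor protein of outer hair cells, averaged 6.85 ± 5.48 CPM in HFD pools and 17.5 ± 10.4 CPM in CD pools (log2 fold change −1.24 ± 0.54; edgeR, adjusted p = 0.197), and the log2 fold change was −0.87 without CD replicate 3. The anion transporter Slc26a9 owed its log2 fold change of −1.43 ± 0.75 to CD replicate 3, with 61.8 CPM there, 1.74 to 11.8 CPM in HFD libraries and 3.04 to 6.63 CPM in the other CD libraries, and without it the value was 0.09. The cation-chloride cotransporters Slc12a2, Slc12a5, Slc12a7 and Slc12a9 had log2 fold changes of −1.32, −0.28, −1.06 and −0.69, all without passing and with SE of 0.63 to 0.91. Slc12a5 was at 0.45 without CD replicate 1, and Slc12a7 at −0.66 and Slc12a9 at −0.40 without CD replicate 3.

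In the class of organic acid, vitamin, nucleoside and lipid carriers, the highest level per kb was that of Slc23a2, the sodium-coupled ascorbate transporter (chromosome 2, 132052496 to 132145108, minus strand). It had 36.2, 102 and 206 CPM as its lowest, median and highest level in HFD libraries, against 34.1, 178 and 599 CPM in CD libraries (log2 fold change −0.95 ± 0.60; edgeR, adjusted p = 0.369), and the log2 fold change was −0.34 without CD replicate 3. The choline-transporter-like Slc44a2 was more uneven still. It had 8.99, 40.2 and 67.0 CPM in HFD libraries, against 9.12, 98.4 and 516 CPM in CD libraries, and all 6 HFD libraries lay below a CD mean that CD replicate 3 raised. Its log2 fold change was −1.83 ± 0.83 (edgeR, adjusted p = 0.214), and the log2 fold change was −0.78 without that library.

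The organic cation transporter Slc22a3 averaged 5.10 ± 2.18 CPM in HFD pools and 12.3 ± 8.61 CPM in CD pools (log2 fold change −1.15 ± 0.48; edgeR, adjusted p = 0.186), and the log2 fold change was −0.76 without CD replicate 3, and Plg overlaps it on the other strand. Pyruvate is the main fuel of the egg, and its plasma membrane carrier Slc16a1 had 4.78, 16.05 and 25.9 CPM in HFD libraries, against 2.77, 30.3 and 42.3 CPM in CD libraries (log2 fold change −0.57 ± 0.59; edgeR, adjusted p = 0.599). Another such carrier, Slc16a7, was under the limit, at 1.16 CPM over all libraries. Slc16a12 reached 46.7 CPM in CD replicate 3, with 0.435 to 6.96 CPM in HFD libraries and 1.58 to 6.37 CPM elsewhere in CD. The orphan Slc23a3, of the ascorbate transporter family, was the highest above 0 in the class, at 14.03 ± 15.5 CPM in HFD pools and 4.81 ± 3.55 CPM in CD pools. It was high in HFD replicates 1 to 3, at 15.5, 20.9 and 41.03 CPM, and at 1.82 to 2.96 CPM in the other 3 (log2 fold change 1.505 ± 0.76; edgeR, adjusted p = 0.257). Without HFD replicate 3 the log2 fold change was 0.96, and the gene met the rule only through HFD.

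Of the 24 members of the Slc25 family, 7 were lower in HFD at an unadjusted p under 0.05 (29.2%, against 8.89% of all genes tested) and 3 higher, a share near the 13.4% of all genes tested. Slc25a22 and Slc25a35, both among these, met the rule through 1 diet only. Of the 22 members that reached the limit in both diets, 6 were lower (27.3%) and 2 higher (9.09%). The 7 lower were Slc25a12, Slc25a13, Slc25a16, Slc25a22, Slc25a32, Slc25a40 and Slc25a44, which carry amino acids and cofactors, and the 3 higher were Slc25a5, Slc25a17 and Slc25a35. The count lower rested in part on single pools. Of the 7, only Slc25a40 stayed under that p without CD replicate 3, where 4.81% of all genes tested were lower. Without HFD replicate 1 only Slc25a16 and Slc25a40 did, and with a replicate block only Slc25a32 and Slc25a40. Without CD replicate 4 all 7 did. Slc25a40, a mitochondrial glutathione importer (chromosome 5, 8422850 to 8454797, plus strand), had a lowest, median and highest level of 6.18, 9.21 and 14.5 CPM in HFD libraries, against 15.4, 21.6 and 30.8 CPM in CD libraries. No HFD library reached the lowest CD library. The log2 fold change was −1.12 ± 0.33 (edgeR, adjusted p = 0.0968), with −1.25 to −0.996 when each library was left out and a DESeq2 adjusted p of 0.0166. Slc25a39, the other glutathione importer of the pair, averaged 27.03 ± 16.3 CPM in HFD pools and 22.4 ± 20.3 CPM in CD pools.

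The diets did not overlap for 3 of the 90 genes, all lower in HFD and all of this family (among all genes tested, 1.95% lower and 0.805% higher, and among those at the limit 2.52% and 0.969%). The other 2 were Slc25a16, linked to the supply of coenzyme A, and Slc25a38, which imports glycine for haem synthesis. Slc25a16 had 24.02, 41.1 and 59.9 CPM as its lowest, median and highest level in HFD libraries, against 60.6, 72.2 and 114 CPM in CD libraries (log2 fold change −0.73 ± 0.30; edgeR, adjusted p = 0.171). Slc25a38 had 51.7, 78.6 and 94.1 CPM in HFD libraries, against 97.7, 114 and 127 CPM in CD libraries (log2 fold change −0.43 ± 0.23; edgeR, adjusted p = 0.289). The levels here are scaled by total counts and the fold changes by TMM, and the fold change of Slc25a38 is the smaller of these 2.

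The aspartate/glutamate carriers Slc25a12 and Slc25a13, which belong to the malate-aspartate shuttle, both had an unadjusted p under 0.05, lower in HFD. Slc25a13 averaged 59.8 ± 16.6 CPM in HFD pools and 104 ± 31.1 CPM in CD pools (log2 fold change −0.70 ± 0.28; edgeR, adjusted p = 0.171). Slc25a12 averaged 5.11 ± 1.66 CPM in HFD pools and 9.79 ± 3.87 CPM in CD pools (log2 fold change −0.85 ± 0.38; edgeR, adjusted p = 0.202). The partner of these in the shuttle, the oxoglutarate/malate carrier Slc25a11, averaged 13.3 ± 4.79 CPM in HFD pools and 20.8 ± 5.74 CPM in CD pools (edgeR, adjusted p = 0.400), with Rnf167 on the other strand. Slc25a32, the folate carrier, averaged 42.8 ± 16.4 CPM in HFD pools and 77.1 ± 23.6 CPM in CD pools (log2 fold change −0.74 ± 0.31; edgeR, adjusted p = 0.181). The branched-chain amino acid carrier Slc25a44 averaged 18.7 ± 4.59 CPM in HFD pools and 31.7 ± 9.61 CPM in CD pools (log2 fold change −0.63 ± 0.29; edgeR, adjusted p = 0.215), and the ornithine carrier Slc25a15 199.8 ± 44.6 CPM in HFD pools and 316 ± 86.3 CPM in CD pools (log2 fold change −0.51 ± 0.27; edgeR, adjusted p = 0.270). For each of these 6 genes all 6 HFD libraries lay below the CD mean. The glutamate carrier Slc25a22 was near the limit, at 3.11 ± 0.928 CPM in HFD pools and 7.89 ± 7.43 CPM in CD pools, where CD replicate 3 held 22.5 CPM, and its log2 fold change of −1.22 ± 0.53 became −0.55 without that library.

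The ADP/ATP translocases export the ATP made in mitochondria, and 3 of them were above the limit. Slc25a5 (chromosome X, 36795651 to 36798807, plus strand) had a lowest, median and highest level of 94.9, 292 and 392 CPM in HFD libraries, against 82.6, 163 and 230 CPM in CD libraries. HFD replicates 1 and 2 lay within the CD range and the other 4 above it. Its log2 fold change was 0.89 ± 0.36 (edgeR, adjusted p = 0.166), but 0.06 once the trend of level with transcript length was removed from each library. Its longest transcript, of 1240 bases, is the shortest of the 90. Processed copies of this gene can share its reads, and their part in its count was not tested. The germ-cell form Slc25a31 had 50.7, 195 and 292 CPM in HFD libraries, against 76.2, 147 and 200 CPM in CD libraries (log2 fold change 0.51 ± 0.41; edgeR, adjusted p = 0.495). The log2 fold change was 0.24 without HFD replicate 4 and 0.09 with the length trend removed. The heart and muscle form Slc25a4 had 60.2 CPM in HFD replicate 3, with 9.71 to 27.3 CPM in the other HFD libraries and 8.999 to 27.5 CPM in CD libraries, and its log2 fold change of 0.25 ± 0.42 became −0.18 without that library. The phosphate carrier Slc25a3, which feeds the same ATP synthesis, was among the 3 steadiest genes, at 112 ± 25.7 CPM in HFD pools and 114 ± 25.6 CPM in CD pools, and Slc25a14 stood at 121 ± 28.1 CPM in HFD pools and 123 ± 29.6 CPM in CD pools.

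Slc25a17, which carries cofactors across the membrane of peroxisomes and not of mitochondria, varied most of the 90 by 1 measure. Its ratio of highest to lowest level, 674, was the largest among genes detected in every library. It stood at 4.78, 5.92, 207, 315, 89.2 and 101 CPM in HFD replicates 1 to 6, against 52.6, 4.45, 38.6, 0.467, 27.5 and 55.5 CPM in CD replicates 1 to 6. HFD replicates 3 to 6 were above every CD library and HFD replicates 1 and 2 were near the bottom (log2 fold change 2.20 ± 1.01; edgeR, adjusted p = 0.217). The orphan carrier Slc25a35 owed its log2 fold change of 2.71 ± 1.09 to HFD replicate 3, with 69.4 CPM, where the other HFD libraries had 0.522 to 3.04 CPM and the CD libraries 0 to 3.05 CPM, and it was 0.40 without that library. Rangrf lies on the other strand there.

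**Figure D4:**
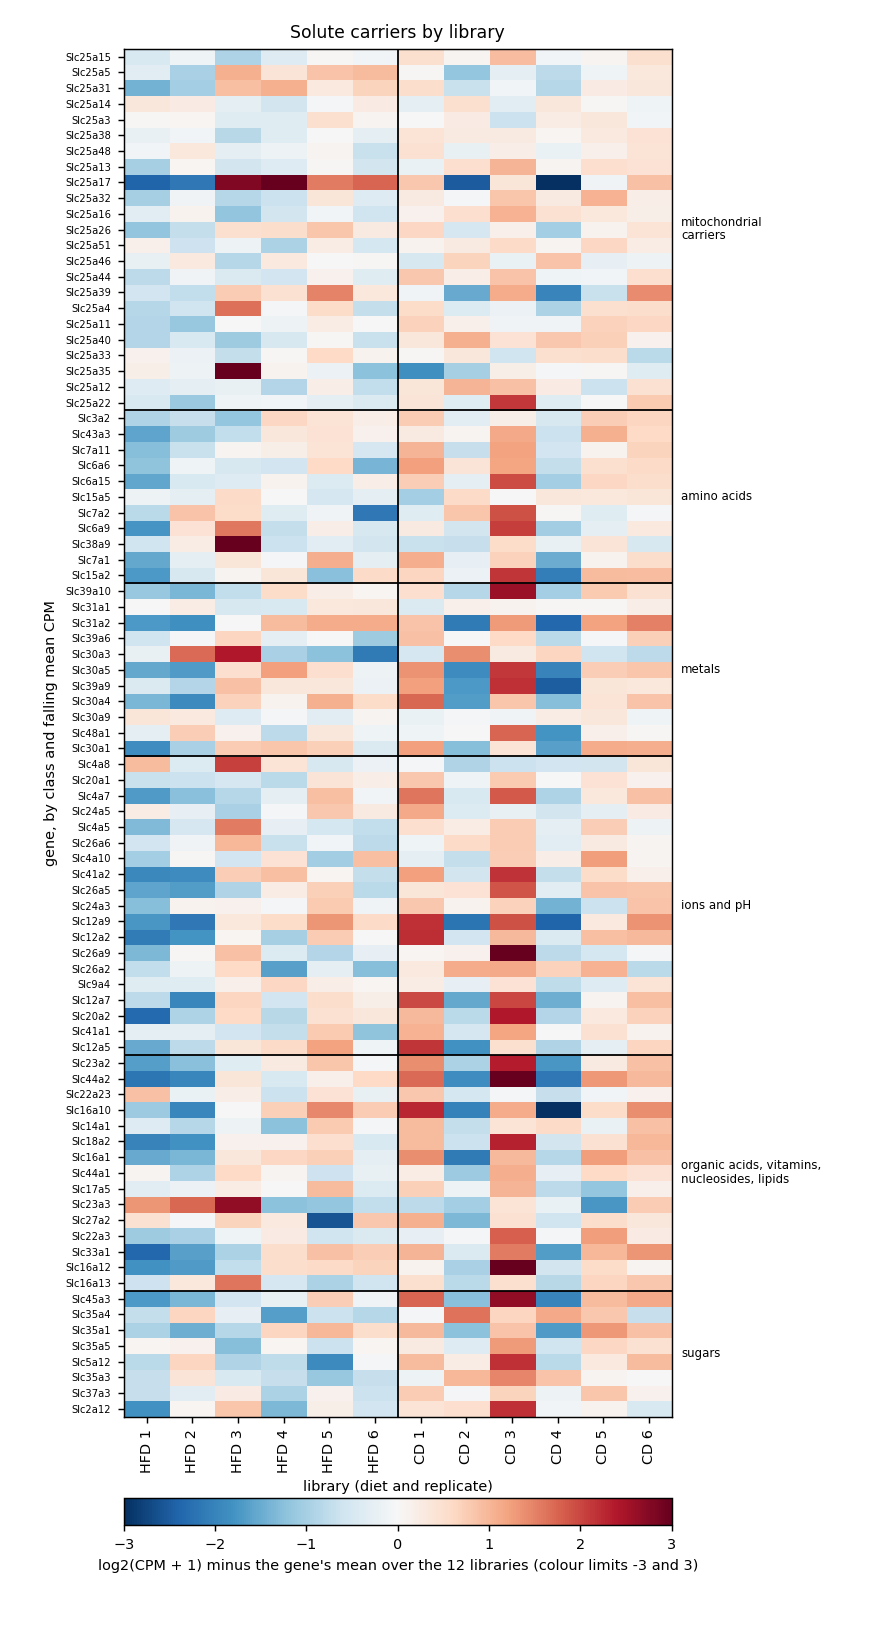
Level of the solute carriers in each library, as log2(CPM + 1) minus the gene's mean over the 12 libraries, with HFD libraries on the left and CD libraries on the right, and genes grouped by class. Over all 90 genes CD replicate 3 is the highest library for 36 genes, CD replicate 1 for 17 and HFD replicate 3 for 11, and HFD replicate 1 is the lowest for 24.

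The differences between pools of 1 diet were larger than the differences between diets for many of these genes. CD replicate 3 was the highest library for 36 of the 90 (40%, against 20.5% of the tested genes at the limit) and HFD replicate 3 for 11 (12.2%, against 26.1%). CD replicates 3 and 1 also held the highest summed level of the oviduct markers, 218 and 166 CPM, of which Cdh1 alone held 213 and 157 CPM. Among the other oviduct markers, Ovgp1 was highest in HFD replicate 1 (16.7 CPM) and Epcam in CD replicate 1 (7.82 CPM). CD replicate 1 held the highest summed level of the cumulus and granulosa markers, 113 CPM, of which 59.4 CPM was Cyp11a1. The part of these markers in the levels of the solute carriers was not tested. For 23 of the 90 (25.6%, against 8.51% of all 7466 genes at the limit) the 4 lowest libraries were the same, HFD replicates 1 and 2 and CD replicates 2 and 4, and the next most frequent set of 4 was shared by 6 genes. The 23 came from every class: they included the sugar carriers Slc45a3 and Slc35a1, the zinc and copper carriers Slc39a10, Slc30a5 and Slc31a2, the vitamin and pyruvate carriers Slc23a2 and Slc16a1, the cystine carrier Slc7a11, and Slc25a5, Slc25a17, Slc25a26 and Slc25a31. Slc25a14 alone of the 90 had these same 4 as its highest. The 4 lowest libraries were also these for the oocyte markers Gdf9, Zp3, Ooep, Mos and Zar1, and not for the other oocyte markers. Gdf9 stood at 551 to 559 CPM in the 4 and at 3689 to 8233 CPM in the other libraries. The set holds 2 libraries of each diet and was noticed in these values, so it names libraries and not groups of the study, and no test was made on it.

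The 3 other lists of transport genes had medians above 0, and their difference from the solute carriers was not tested. Of 9 genes of mitochondrial pyruvate import, calcium uptake and the outer membrane channel, 6 had an unadjusted p under 0.05 and lay higher in HFD (66.7%, against 13.4% of all genes tested), and 0 lay lower (0%, against 8.89%), with a median log2 fold change of 0.90. Among them were the pyruvate carrier subunits Mpc1 (0.90 ± 0.30; edgeR, adjusted p = 0.116) and Mpc2 (1.80 ± 0.70; edgeR, adjusted p = 0.159) and the outer membrane channel Vdac2 (1.07 ± 0.34; edgeR, adjusted p = 0.105). Of 25 vacuolar proton ATPase subunits, which acidify lysosomes, 18 were tested, with 3 higher and 3 lower at that p (16.7% each) and a median of 0.20; Atp6v0e had the smallest p (1.52 ± 0.32; edgeR, adjusted p = 0.0913). Of 8 sodium/potassium ATPase subunits, which maintain the sodium gradient that many solute carriers use, 4 were tested and none had an unadjusted p under 0.05 (median 0.20, but −0.06 without HFD replicate 3). The 17 other genes at the limit whose symbol starts with Slc but has another form, most of them Slc35 members with a letter other than a, had a median of 0.07, with 3 higher and 3 lower at that p (17.6% each); the median was −0.02 without HFD replicate 3 and −0.04 with total counts.

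The limit of the rule cut through a continuous range of levels. Just inside it stood Slc15a2, Slc25a22 and Slc12a5, at means of 5.41, 5.498 and 5.53 CPM over all libraries, and just outside Slc44a4, Slc16a11 and Slc25a1, at 4.99, 4.86 and 4.75 CPM. The mitochondrial citrate carrier Slc25a1 averaged 6.47 ± 8.27 CPM in HFD pools and 3.03 ± 1.41 CPM in CD pools. Of the 231 genes under the limit, 178 averaged under 1 CPM and 55 had no count in any library. Slc38a3, the alanine carrier of cumulus cells, had a count of 0 in all 12 libraries.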

How the data were processed

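RNA of 12 pools of 4 oocytes, 6 per diet, was sequenced after template-switching cDNA synthesis (SMART-Seq v4) and tagmentation (Nextera XT), per the labels' protocols, a chemistry that does not mark strand. The table that the authors deposited holds raw counts (whole numbers, no normalisation) of 24062 gene symbols, with 5 lines in which the counter tallied reads it did not assign (66.5% to 72.9% of all tallied reads in HFD, 62.3% to 66.6% in CD), which were left out. The submitters' processing notes name STAR, HTSeq 1.0.0, DESeq2 1.0.19 and mm10. No STAR version, annotation or counting setting is given in the sources used here. Symbols were matched to GENCODE M21 of the same build (22750 matched, 1312 not; all 90 solute carriers matched) for coordinates and the longest transcript. Of the 90, 16 overlap a protein-coding gene on the other strand. Overlap was taken over whole gene spans, introns included, and shared exons were not looked for. Reads in any shared exon cannot be told apart.

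Levels are CPM of total gene counts; between genes they are compared per kb. Diets were compared with edgeR 4.0.16 (R 4.3.3; TMM, filterByExpr, robust quasi-likelihood F-test, diet as the only term), with Benjamini-Hochberg adjustment over the 9935 genes that passed the filter and a threshold of 0.05, after the code was tested on simulated data. SE are the fold change divided by the root of F. Counts of genes at an unadjusted p under 0.05 are descriptions. Groups follow the labels' diet names. No label says that the replicate numbers pair the diets, and same-numbered libraries' deviations correlated at -0.45 to 0.55. Alternatives were DESeq2 1.42.0 and its size factors, total counts, no filter, limma-voom 3.58.1, a replicate block, all-even libraries halved or left out, the trend with transcript length removed, and each library left out. The fit without the length trend used limma on log2 CPM, with the length known for 95.5% of tested genes. Leaving out replicate 3 of both diets was chosen after seeing the data. Without molecular identifiers, counts do not number independent molecules.

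The solute carriers, their classes by family and the other lists were chosen with earlier results of these data known. The genes named were the 10 highest per kb, the 8 smallest p in each direction, the highest and the smallest p of each class, the 3 most and 3 least variable, carriers of known function in eggs and their cumulus cells, and the 3 nearest the limit on each side; others were named after their values were seen. A few genes that these rules take are not reported here.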

Additional observations from a re-analysis of the deposited data

Results flagged for a closer look

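In groups of 6 libraries, a library was marked where its gap to the nearest other library was large beside the whole range of its diet (Dixon's criterion). Of 124 groups examined (each named solute carrier, each class sum and the sum of all 90 in each diet), 19 were marked. Of the 19, 11 lay in CD replicate 3, 4 in HFD replicate 3, 3 in CD replicate 1 and 1 in HFD replicate 2. The criterion marks about 1 in 20 unselected groups of normal values. Some genes here were named for their variation or after their values were seen, and all groups share the same libraries. The 19 can therefore not be set against that rate.

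HFD replicate 3 stood high for the bicarbonate exchanger Slc4a8 (242 CPM, the next HFD library 111 CPM), for Slc25a35 (69.4 CPM, next 3.04 CPM), the lysosomal Slc38a9 (69.7 CPM, next 9.24 CPM) and the ADP/ATP translocase Slc25a4 (60.2 CPM, next 27.3 CPM). HFD replicate 2 stood high for Slc35a3 (26.1 CPM, next 14.03 CPM).

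CD replicate 3 stood high for the zinc importer Slc39a10 (1765 CPM, next 499 CPM) and with it for the sum of the metal carriers (2425 CPM, next 970 CPM), for Slc25a16 (114 CPM, next 78.5 CPM), Slc16a12 (46.7 CPM, next 6.37 CPM), Slc26a9 (61.8 CPM, next 6.63 CPM), the glycine transporter Slc6a9 (46.3 CPM, next 12.8 CPM) and Slc25a22 (22.5 CPM, next 8.22 CPM). The same library stood high for the choline-transporter-like Slc44a2 (516 CPM, next 144 CPM), Slc5a12 (89.2 CPM, next 36.9 CPM), Slc26a5 (37.2 CPM, next 17.8 CPM) and the glucose transporter Slc2a12 (27.01 CPM, next 7.62 CPM). CD replicate 1 stood low for the copper importer Slc31a1 (75.5 CPM, next 105 CPM) and high for Slc12a5 (20.9 CPM, next 6.66 CPM) and Slc12a2 (36.1 CPM, next 14.7 CPM).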

How the results depend on the processing

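No alternative made edgeR call any of the 90 solute carriers, and DESeq2 called 1 (Slc25a40) and 709 of all genes. Limma-voom called 35 of all genes and the fit on the 8 libraries with odd counts 456, none of either among the 90. The fit on libraries with odd counts sets only HFD replicates 3 and 5 against all CD libraries. The median over the 90 stayed below 0 in each of the 22 alternatives, and of the 55 named here 42 kept their sign in each alternative that tested them, among them the 21 with an unadjusted p under 0.05. The log2 fold change moved by over 1.5 times or turned for 34 of the 55 without the length trend, 32 without replicate 3 of both diets, 29 on libraries with odd counts, 26 with limma-voom, 18 with a replicate block, 9 with total counts and 6 to 22 with each library left out. The count higher at that p was 2 with total counts, 1 with limma-voom, 2 with a replicate block (7.34% of all genes), 1 without the trend with transcript length, 0 without replicate 3 of both diets, and 1 to 5 with each library left out. The count lower was 7 with a replicate block (5.29% of all genes), 6 on libraries with odd counts (4.29%) and 15 with limma-voom. It was 11 without the length trend, 5 without replicate 3 of both diets, and 5 to 22 with each library left out. Of 6 HFD libraries, 2 correlated best with the CD library of their own number, and whether the numbers pair the libraries cannot be told from this.

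The sign turned with total counts for Slc25a14 (-0.0200), Slc30a9 (-0.00415) and Slc25a3 (-0.0232); on libraries with odd counts for Slc25a14 (-0.39), Slc31a1 (-0.20), Slc30a9 (-0.60), Slc25a3 (-0.0646), Slc6a9 (0.33) and Slc12a5 (0.26); without the length trend for Slc25a14 (-0.22), Slc25a4 (-0.18), Slc12a5 (0.25), Slc25a26 (-0.0230) and Slc30a3 (-0.25); with limma-voom for Slc25a4 (-0.18), Slc12a5 (0.28) and Slc30a3 (-0.31); with a replicate block for Slc12a5 (0.32) and Slc30a3 (-0.0544); and without replicate 3 of both diets for Slc31a2 (0.13), Slc16a12 (0.34), Slc6a9 (0.04), Slc25a4 (-0.23) and Slc30a3 (-0.14). With each library left out, the range was -0.44 to 0.10 for Slc31a2, -0.13 to 1.28 for Slc38a9, -0.18 to 0.38 for Slc25a4, -0.0147 to 0.21 for Slc25a14, -0.0187 to 0.24 for Slc31a1, -0.64 to 0.45 for Slc12a5, -1.74 to 0.18 for Slc16a12, -1.71 to 0.0878 for Slc26a9, -0.0254 to 0.20 for Slc25a3, -0.14 to 0.84 for Slc30a3 and -0.74 to 0.45 for Slc6a9. The cause of these turns was not tested. A limit of 5 CPM in each diet kept 79 of the 90 genes.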
